A study of Homo sapiens with 6 samples.

Results

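The 7 genes described here are the 4 inhibitor of DNA binding genes, ID1, ID2, ID3 and ID4, and the 3 genes of their E-protein partners, TCF3, TCF4 and TCF12. They were chosen by symbol, and 7 of the 36601 genes in the deposited matrices matched. Single cells of the long-established human neuroblastoma line SK-N-BE(2)-C were profiled with Seq-Well S3, which captures single cells and barcoded beads in small wells. There were 3 groups of 2 libraries: DMSO, the vehicle, TSA, which usually stands for trichostatin A, a blocker of histone deacetylase enzyme activity, and E6R, in a series on a non-enzymatic inhibitor of the histone deacetylase complex. Doses, times and the structure of E6R are not given in the sources used here, all groups are the same line, and nothing states that the 2 libraries of a group came from separate cultures, so p-values measure only the spread between these libraries, which may be technical.

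E proteins are basic helix-loop-helix (bHLH) transcription factors that bind short DNA motifs called E-boxes, alone or paired with tissue-restricted bHLH partners such as HAND1 and HAND2. ID proteins carry the helix-loop-helix but lack the DNA-binding basic region, so an E protein paired with an ID protein does not bind DNA. In the neural lineage this balance is known for holding back or releasing differentiation, and ID genes are classical targets of bone morphogenetic protein (BMP) signals carried by SMAD proteins. TCF4 here is the E protein and not TCF7L2, a factor of Wnt signalling that shares the nickname.

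A barcode counted as a cell when it held 500 or more genes and no more than 20% of its unique molecular identifiers (UMIs) came from mitochondrial genes. This left 1861 and 3132 cells in the DMSO libraries, 2467 and 3292 in the TSA libraries and 2891 and 3946 in the E6R libraries, with 4206366 to 26180262 UMIs per library and a median of 1054 to 1880 UMIs per cell. Any pair of libraries shared 11 to 58 cell barcodes, between 0.351% and 2.11% of the smaller library. Mitochondrial genes held 5.83% and 6.2% of UMIs under DMSO, 6.08% and 9.71% under TSA, and 1.55% and 1.51% under E6R, and the part of this in the results was not tested. Of 10 adrenergic neuroblastoma markers, 9 stood at 10 CPM or more (the usual unit of counts scaled to a common library total, here with no further scaling) in every library. Of 18 markers of fibroblast, epithelial, endothelial, blood and Schwann cells, 7 reached 10 CPM in at least 1 library. The 5 fibroblast markers summed to 27.3 to 110 CPM under DMSO, 67.6 to 115 under TSA and 27.7 to 256 under E6R. The 3 endothelial markers PECAM1, VWF and CDH5 summed to 55.4 and 4.38 CPM in DMSO replicates 1 and 2, 10.6 and 3.90 in the TSA replicates, and 65.8 and 1.91 in the E6R replicates. Replicate 1 was thus the higher library of each group for these 2 lists. The same held for the 3 Schwann markers. They summed to 10.5 and 5.63 CPM in DMSO replicates 1 and 2, 12.4 and 4.28 under TSA, and 16.5 and 5.65 under E6R. The epithelial, blood and Schwann lists summed to at most 1.66, 3.13 and 16.5 CPM in any library, and in each group the counts of 1 blood marker were at 0, as were those of 1 epithelial marker under E6R.

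The promoters of the 4 ID genes are shown as a description of the letters before their starts. ID2 rose under TSA, ID1 and ID3 did not pass, and ID4 was tested only because of its TSA counts. The letters are therefore not read against these calls. The sequences are RefSeq's, GRCh38.p14, from 250 bases before to 50 bases after each annotated start, written along the gene's strand. ID1 lies at chr20:31605039-31605338 (plus strand), ID2 at chr2:8681806-8682105 (plus), ID3 at chr1:23559452-23559751 (minus) and ID4 at chr6:19837120-19837419 (plus). Capitals mark the E-box letters CANNTG, the letters CCAAT or their reverse complement, and TATAAA or its reverse complement; in ID1 the matches to TATAAA on both strands overlap.
ID1: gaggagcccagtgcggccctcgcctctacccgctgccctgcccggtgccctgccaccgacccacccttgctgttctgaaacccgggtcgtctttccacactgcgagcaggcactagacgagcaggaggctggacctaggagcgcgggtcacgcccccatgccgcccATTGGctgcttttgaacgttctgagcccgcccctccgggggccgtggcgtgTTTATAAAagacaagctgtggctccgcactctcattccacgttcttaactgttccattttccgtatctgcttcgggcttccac
ID2: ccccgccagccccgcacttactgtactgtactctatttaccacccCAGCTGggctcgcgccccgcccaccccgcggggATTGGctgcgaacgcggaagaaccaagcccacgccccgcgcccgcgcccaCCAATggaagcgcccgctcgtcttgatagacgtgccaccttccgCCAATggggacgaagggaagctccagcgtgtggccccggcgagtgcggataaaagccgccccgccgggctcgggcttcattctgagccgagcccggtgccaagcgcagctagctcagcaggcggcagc
ID3: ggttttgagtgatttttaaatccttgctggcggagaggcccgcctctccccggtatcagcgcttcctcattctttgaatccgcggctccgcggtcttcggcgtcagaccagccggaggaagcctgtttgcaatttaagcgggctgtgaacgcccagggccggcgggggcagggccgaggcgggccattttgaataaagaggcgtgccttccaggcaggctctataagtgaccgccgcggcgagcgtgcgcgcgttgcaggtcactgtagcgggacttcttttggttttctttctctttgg
ID4: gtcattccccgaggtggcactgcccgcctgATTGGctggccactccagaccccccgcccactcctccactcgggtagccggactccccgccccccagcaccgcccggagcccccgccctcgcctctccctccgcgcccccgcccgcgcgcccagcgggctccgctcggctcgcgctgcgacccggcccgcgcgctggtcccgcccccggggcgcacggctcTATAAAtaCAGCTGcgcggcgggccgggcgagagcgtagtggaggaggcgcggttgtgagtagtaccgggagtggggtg
The windows of ID2 and ID4 each held 1 E-box, CAGCTG in both, at base 46 of the ID2 window and at base 230 of the ID4 window. The windows of ID1 and ID3 held none. Of all 35116 promoter windows of this length, 68.7% held CANNTG and 17.9% held CAGCTG. ID1 and ID4 held TATAAA, found in 11.5% of all windows, and ID1, ID2 and ID4 held CCAAT, found in 34.6%. The letters GGCGCC, a palindromic BMP-SMAD element found in 19.2% of all windows, were in none of the 4 windows. Letters further from the starts were not searched. RefSeq listed 1 start for TCF3, with no E-box in its window, 10 starts for TCF4, of which 7 held an E-box, and 5 for TCF12, of which 2 did. The counts per gene do not tell which start was used.

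Levels are given as CPM with the library size scaled by the trimmed mean of M-values (TMM), and changes are tested on UMIs summed over the cells of each library with edgeR's quasi-likelihood test and Benjamini-Hochberg adjustment over all 16763 genes tested. All 7 genes passed the low-count filter, ID4 only through its counts under TSA. Under TSA, TCF4 fell and ID2 and ID4 rose. Under E6R none of the 7 genes passed against DMSO, beside 0% of all genes tested. TCF3 and ID1 passed in no comparison.

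**Figure D1:**
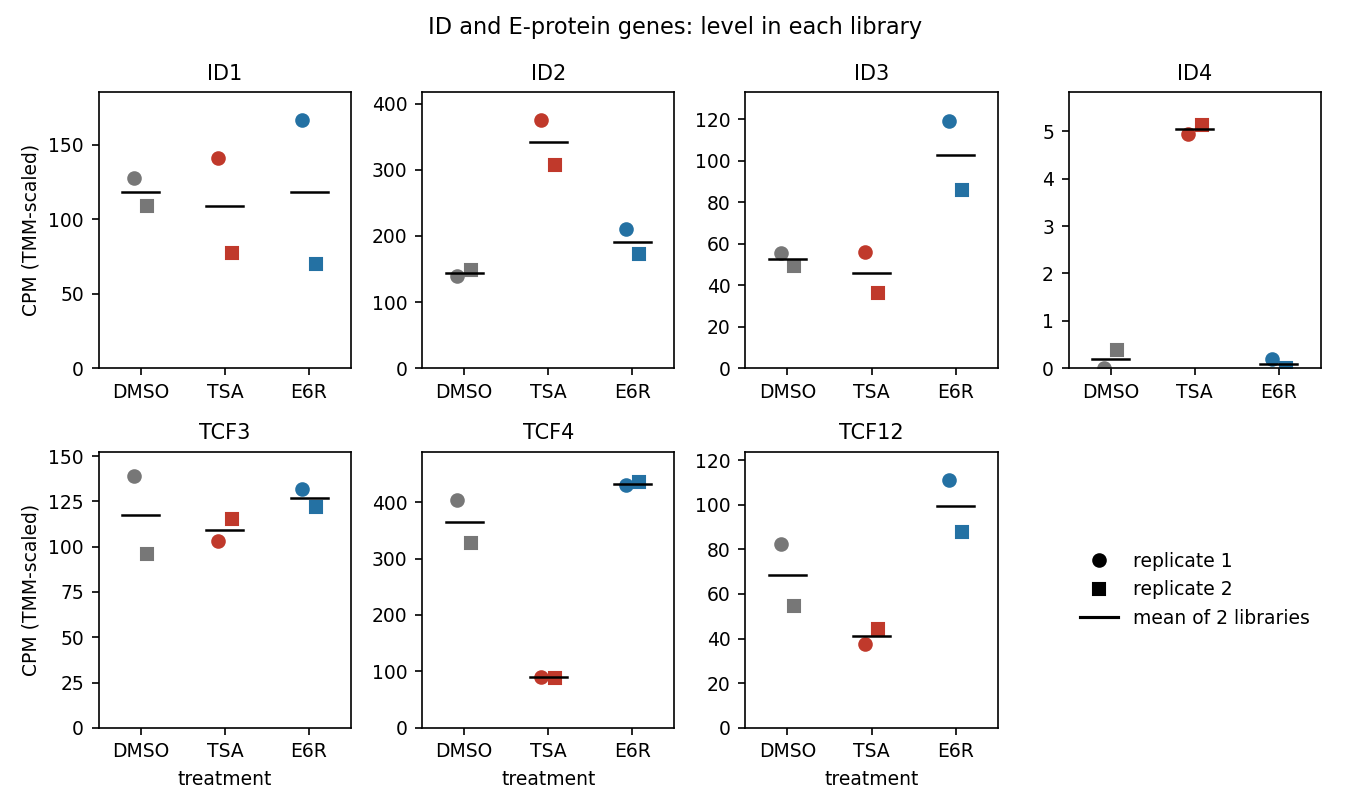
Level of each of the 7 genes in the 6 libraries, in TMM-scaled CPM on an axis from 0 (each panel has its own scale), by treatment; circles are replicate 1, squares replicate 2 and bars the mean of 2 libraries. TCF4 lies near 90 CPM in both TSA libraries and above 300 CPM in the other 4, ID2 and ID4 are highest under TSA, and the ID1 libraries spread most under E6R, from 69.8 to 167 CPM.

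TCF4 (ENSG00000196628; GRCh38 chromosome 18, 55222331 to 55664787 in GENCODE 29, minus strand, protein coding) was at 403 and 328 CPM in DMSO replicates 1 and 2. It was at 90.2 and 88.7 CPM in the TSA replicates and at 430 and 436 CPM in the E6R replicates. Both TSA libraries lay below all others, and the E6R libraries lay above both DMSO libraries by a margin smaller than the gap between the DMSO libraries. TCF4 fell by 2.03 on the log2 scale under TSA (SE 0.20, adjusted p = 0.00101), a 4.08-fold lower level. E6R against DMSO did not pass, at 0.25 on the log2 scale (SE 0.19, adjusted p = 0.537). The direct comparison of E6R with TSA gave 2.28 (SE 0.20, adjusted p = 0.000447). TCF4 passed in all 20 alternatives for TSA, with adjusted p from 2.53e-21 to 0.0211. Antisense genes overlap TCF4, but TCF4-AS1 and TCF4-AS2 had 1 UMI in all 6 libraries together.

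TCF12 (ENSG00000140262; chromosome 15, 56918623 to 57299281, plus strand), an E protein made in many tissues, was at 82.2 and 54.5 CPM under DMSO, 37.8 and 44.1 under TSA, and 111 and 87.6 under E6R. The 3 groups did not overlap, with TSA lowest and E6R highest. Neither difference from DMSO passed: the log2 fold change was -0.74 for TSA (SE 0.25, adjusted p = 0.0596) and 0.54 for E6R (SE 0.25, adjusted p = 0.313). The difference between E6R and TSA did, at 1.28 (SE 0.25, adjusted p = 0.00606). The TSA value stood close to the threshold and passed in 13 of 20 alternatives, with adjusted p from 0.0113 to 0.391. The E6R against TSA call was lost without TSA replicate 1 (adjusted p = 0.0619).

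TCF3 (ENSG00000071564; chromosome 19, 1609290 to 1652605, minus strand), whose alternative exons give a pair of E proteins that gene counts do not separate, was at 139 and 96.0 CPM under DMSO. It was at 103 and 115 CPM under TSA and at 132 and 122 CPM under E6R. The DMSO libraries spanned all 4 treated libraries, and the adjusted p was 0.75 for TSA and 0.827 for E6R against DMSO and 0.469 between the treatments.

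ID2 (ENSG00000115738; chromosome 2, 8678845 to 8684453, plus strand), which besides E proteins binds the retinoblastoma protein, was at 139 and 149 CPM under DMSO. It was at 375 and 308 CPM under TSA and at 210 and 173 CPM under E6R. The 3 groups did not overlap, and TSA was highest. ID2 rose by 1.24 on the log2 scale under TSA (SE 0.21, adjusted p = 0.00492), a 2.37-fold higher level, and passed in all 20 alternatives (adjusted p from 1.78e-06 to 0.0419). E6R against DMSO gave 0.41 on the log2 scale (SE 0.21, adjusted p = 0.343). ID2 was lower under E6R than under TSA, at -0.83 (SE 0.21, adjusted p = 0.015); this call was lost without TSA replicate 1 (adjusted p = 0.116), without E6R replicate 2 (0.0703) and without the low-count filter (0.0698). ID2-AS1 overlaps ID2 on the other strand and was at 7.22 and 9.75 CPM under DMSO, 14.7 and 15.2 under TSA and 6.32 and 4.59 under E6R, and whether reads were assigned by strand is not given in the sources used here.

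ID4 (ENSG00000172201; chromosome 6, 19837386 to 19840684, plus strand), an ID gene known from the developing nervous system, was near the detection limit outside TSA. It had 0 and 2 UMIs in the DMSO libraries, 65 and 59 in the TSA libraries, and 3 and 0 in the E6R libraries. The TSA libraries stood at 4.94 and 5.14 CPM, above all others. Per UMI sequenced in cells, the TSA libraries held 20.2 times as much as those of DMSO (exact 95% counting interval 5.48 to 169). They held 62.8 times as much as those of E6R (21.0 to 309). The gap to DMSO was smaller in barcodes with too few genes to count as cells. There ID4 had 3 and 4 UMIs under DMSO, 19 and 7 under TSA and 1 and 1 under E6R. In CPM without TMM scaling these were 1.33 and 1.15, 6.5 and 2.21, and 0.437 and 0.274. With all deposited barcodes the fitted log2 fold change for TSA was 3.28, against 4.59 in cells. Since ID4 entered the edgeR fit only through the TSA libraries, where it was high, its calls are given as a description. The test passed for TSA against DMSO (adjusted p = 0.0217) and for E6R against TSA (adjusted p = 0.00472), and not for E6R against DMSO (adjusted p = 0.717). The TSA call was lost without any 1 DMSO or TSA library, where the adjusted p lay between 0.0516 and 0.107, and the overlapping antisense gene AL022068.1 had 3 to 14 UMIs per library, of which the TSA libraries had 3 and 4.

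ID3 (ENSG00000117318; chromosome 1, 23557918 to 23559794, minus strand), an early-response target of BMP signals like ID1, was at 55.5 and 49.3 CPM under DMSO. It was at 55.8 and 36.0 CPM under TSA and at 119 and 85.9 CPM under E6R. The E6R libraries lay above all others, while the TSA libraries overlapped those of DMSO. The E6R against DMSO log2 fold change of 0.97 (SE 0.27, unadjusted p = 0.00717) had an edgeR adjusted p of 0.205 and did not pass. E6R was higher than TSA by 1.16 (SE 0.27, adjusted p = 0.0118). Without TSA replicate 2 that call was lost (0.88, adjusted p = 0.107). TSA against DMSO gave an adjusted p of 0.623.

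ID1 (ENSG00000125968; chromosome 20, 31605283 to 31606515, plus strand), a BMP target that is also induced by serum, was at 128 and 109 CPM under DMSO, 141 and 77.5 under TSA, and 167 and 69.8 under E6R. The libraries of a treatment differed more than the treatments did, replicate 1 being 1.17, 1.81 and 2.39 times replicate 2 in the 3 groups. The adjusted p was 0.848 for TSA and 0.997 for E6R against DMSO. Replicate 1 was also the library of each group with the higher sums of fibroblast, endothelial and Schwann markers given above. The part of those in the spread of ID1 was not tested.

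Of the 7 genes, 3 (42.9%) passed for TSA against DMSO, where 29.7% of all genes tested passed. The genes that passed were ID2 and ID4, which were higher, and TCF4, which was lower. Since ID4 was tested only because of its TSA counts, the count is a description; leaving it out, 2 of 6 passed. Of all genes, 16.2% were called higher and 13.5% lower (2720 and 2255 genes, and 1717 and 3361 with total counts only). For E6R against DMSO 0 of 7 passed by edgeR, beside 0% of all genes (0% called higher, 0% lower). At an unadjusted p under 0.05 there was 1 of 7, ID3, and 2913 of 16763 genes. DESeq2 gave ID3 an adjusted p of 0.0712. For E6R against TSA 5 of 7 (71.4%) passed, 3 higher and 2 lower under E6R, beside 38.2% of all genes (18.7% higher, 19.5% lower). ID4 is among those lower and was tested only because of its TSA counts, so this count too is a description. The comparisons share libraries, so they are not independent. With only 7 genes these shares do not separate the family from other genes.

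**Figure D2:**
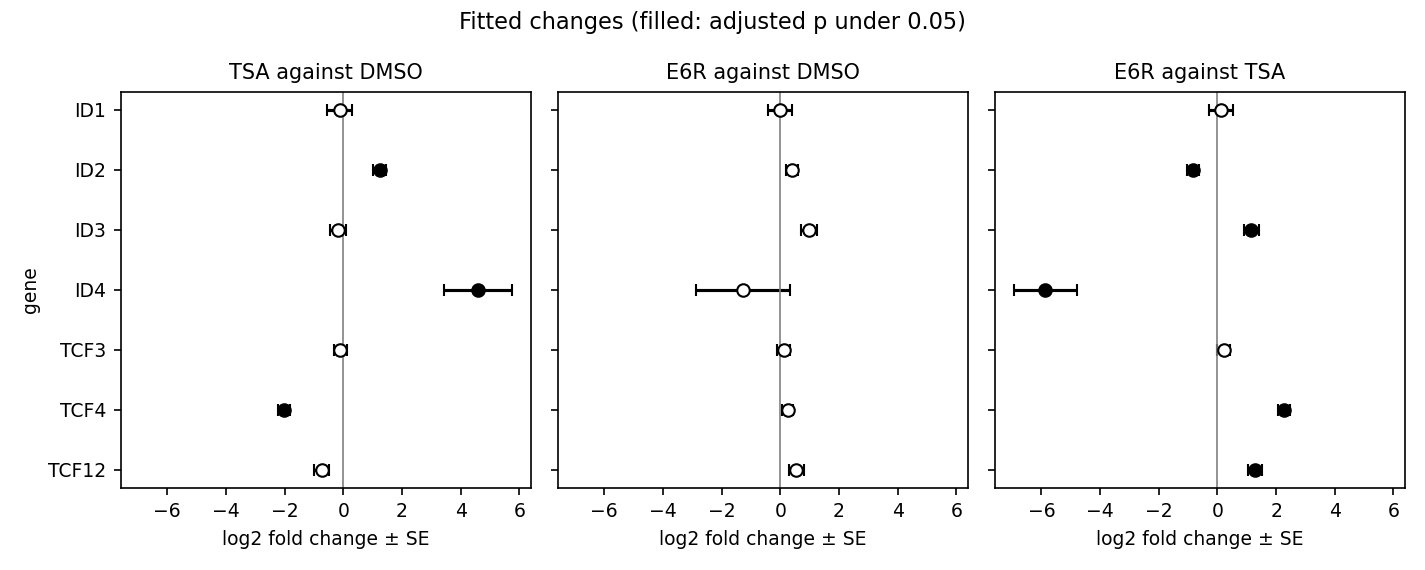
Fitted log2 fold change of each of the 7 genes in the 3 comparisons, with SE bars; filled points have an edgeR adjusted p under 0.05. TCF4 is at -2.03 for TSA and at 0.25 for E6R, and the fitted value of ID4 rests on 2 UMIs under DMSO and 3 under E6R and so is no measure of its fold.

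The order of the treatments differed between members. For TCF4 it ran TSA, DMSO, E6R, with DMSO and E6R not separated by the test, and TCF12 had the same order with only its ends separated. For ID2 it ran DMSO, E6R, TSA, and DMSO and E6R were not separated. For ID3 it was TSA, DMSO, E6R, with only the ends separated, and for ID4 TSA stood above the others. ID1 and TCF3 had no separated neighbours.

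The UMIs of the 4 ID genes were also set against those of the 3 E-protein genes within each library, a quantity that does not depend on the scaling of libraries. UMIs of different genes were not corrected for length, so only its change between libraries is read. The log2 ratio of ID to E-protein UMIs was -0.95 and -0.63 under DMSO, 1.32 and 0.78 under TSA, and -0.44 and -0.98 under E6R. Both TSA libraries lay above the other 4, and the E6R range contained that of DMSO. The mean difference was 1.84 for TSA against DMSO, a 3.59-fold higher ratio, and 0.0862 for E6R against DMSO. For TSA the p of a two-sided exact permutation test was 0.333, the smallest that 2 libraries against 2 allow, and for E6R it was 1. The TSA difference was carried by ID2 and TCF4: without both genes the log2 ratios were -0.27 and 0.08 under DMSO and 0.52 and -0.43 under TSA, which overlapped, and the mean difference was 0.139 (exact permutation p = 1). Without ID2 alone it was 1.05 and without TCF4 alone 0.936.

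**Figure D3:**
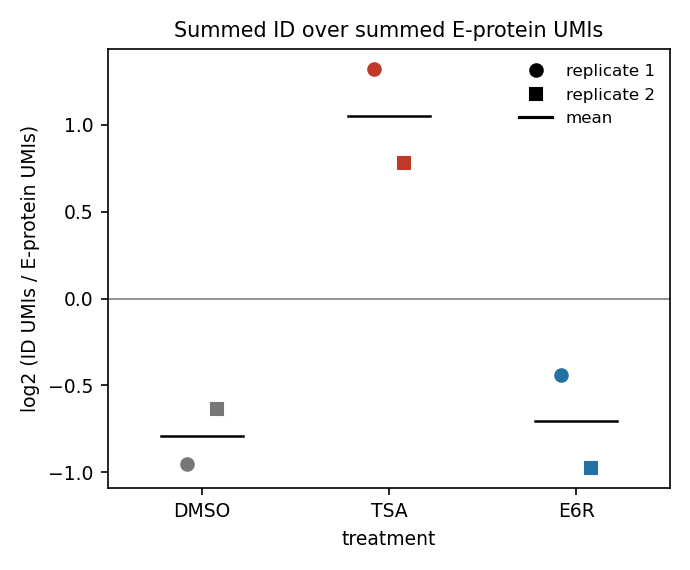
Log2 ratio of the summed UMIs of ID1, ID2, ID3 and ID4 to those of TCF3, TCF4 and TCF12 in each library, by treatment; circles are replicate 1, squares replicate 2, bars the mean. The TSA libraries lie at 0.78 and 1.32 and the other 4 between -0.98 and -0.44.

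The share of cells with a UMI comes from the same counts as the levels and describes how they were spread over cells. With each cell thinned to 1000 UMIs, TCF4 was found in 35.2% and 28.3% of the cells of the DMSO libraries (exact 95% binomial intervals 32.5 to 38.0 and 26.2 to 30.5, covering counting error only). In the TSA libraries it was found in 6.70% and 6.67% of cells, and in the E6R libraries in 31.6% and 33.0%. Cells with 2 or more TCF4 UMIs were 7.67% and 6.06% under DMSO, 0.432% and 0.430% under TSA, and 8.09% and 8.21% under E6R. Unthinned, the shares of cells with TCF4 were 45.9% and 33.5%, 23.3% and 17.7%, and 54.7% and 48.5%. Thinning left out 674 and 1450 DMSO, 615 and 503 TSA, and 692 and 1718 E6R cells that were shallower.

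ID2 was found in 13.6% and 14.3% of thinned DMSO cells, 25.5% and 19.9% of TSA cells and 16.9% and 13.9% of E6R cells. Unthinned these were 22% and 18.8%, 48.8% and 41.6%, and 40.0% and 28.0%. ID4 was found in 0.432% and 0.359% of thinned TSA cells and in 0 of 1187 and 2 of 1682 DMSO cells. It was in 0 of 2199 and 0 of 2228 E6R cells, which at this depth allows shares of up to 0.136% and 0.135% of cells with a UMI and sets no limit on cells that express the gene. Unthinned, 2.35% and 1.58% of TSA cells and 3 and 0 E6R cells held an ID4 UMI, and the most in any 1 cell was 3. For ID3 the share was 8.19% ± 2.06 (SD, n = 2) under E6R, where DMSO had 5.15% ± 1.06 and TSA 3.62% ± 1.67. TCF12 had 6.90% ± 1.68 under DMSO, 3.03% ± 0.0805 under TSA and 8.92% ± 0.498 under E6R, in the same order of treatments as its CPM. Unthinned, ID3 was in 9.10% of cells under DMSO, 12.5% under TSA and 23.5% under E6R, as means of 2 libraries. For TCF12 these means were 11.0% under DMSO, 12.1% under TSA and 25.3% under E6R. For both genes the unthinned mean under TSA was thus above that under DMSO, unlike the thinned mean. Unthinned cells differed in depth, with medians of 1268 and 1053.5 UMIs under DMSO, 1728 and 1876 under TSA, and 1880 and 1124 under E6R. Thinned shares compare cells at the same depth. The part of depth in the unthinned shares was not tested.

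The cells are 1 line, so no cell type that should lack these genes was present to measure free RNA. Barcodes with fewer than 500 genes were read in its place. In plain CPM, TCF4 there was at 405 and 301 under DMSO and 80.4 and 79.0 under TSA, against 451 and 358, and 83.1 and 76.5, in cells. The share of free RNA among the TCF4 UMIs of cells was not tested.

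**Figure D4:**
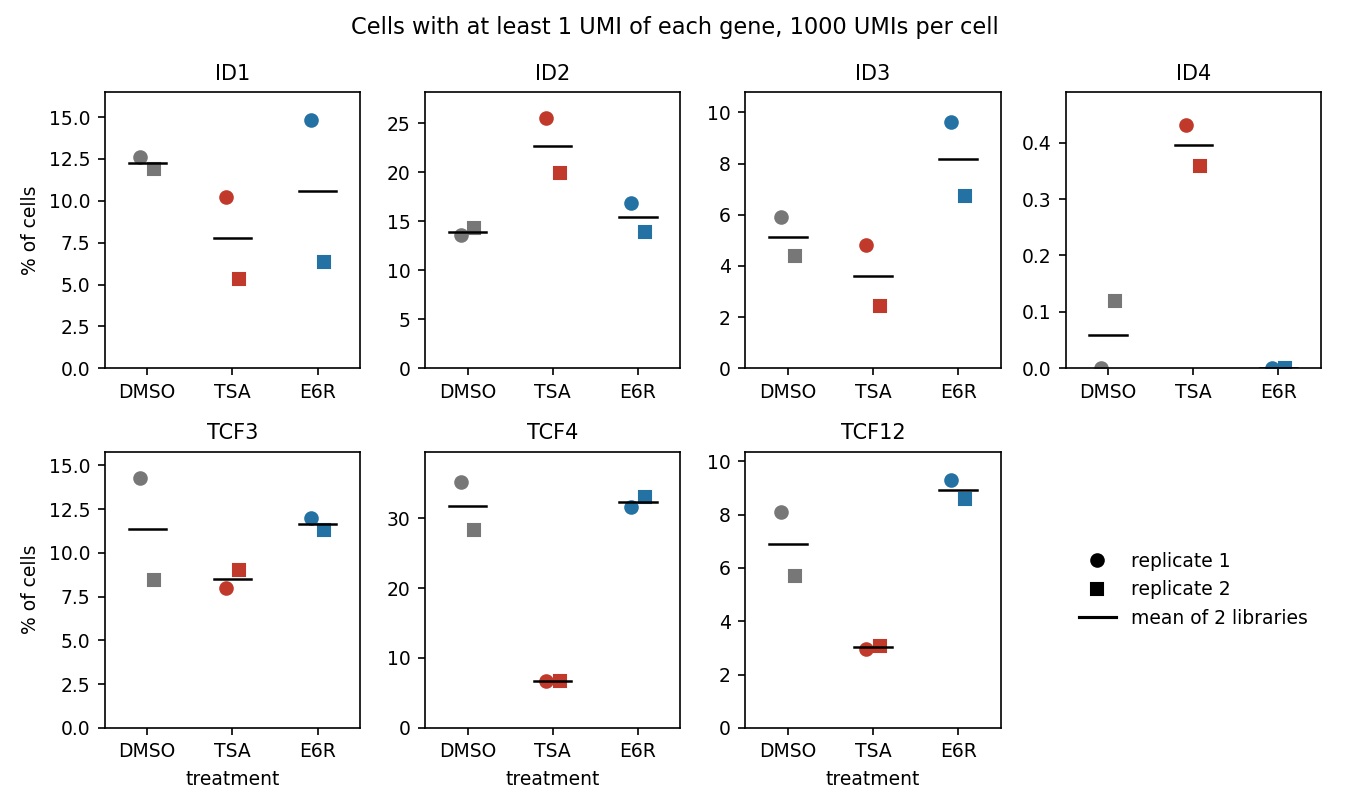
Percent of cells with at least 1 UMI of each gene after thinning every cell to 1000 UMIs, by treatment, on axes from 0 (each panel has its own scale); circles are replicate 1, squares replicate 2, bars the mean. TCF4 is at 6.67% and 6.70% under TSA and between 28.3% and 35.2% in the other libraries.

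Whether the genes varied with division was read within libraries. Cells thinned to 1000 UMIs were ranked by their UMIs from 52 genes of the G2/M phase, none of them a member, and the upper tertile was set against the lower tertile, a split along a range and not into cell types. The medians of the score were 15 to 16 UMIs in the upper and 3 to 7 in the lower tertile, and MKI67, a proliferation gene that is in the score, was 1.67 to 4.17 higher on the log2 scale. Of the 7 genes, 0 passed the exact two-sided sign-flip permutation test over the 6 libraries, where the smallest possible p is 0.0312. After adjustment over the 7 genes a single gene at that p could not pass. The test therefore cannot tell whether any 1 gene varied with division. TCF12 came closest, with a mean log2 ratio of 0.142 ± 0.142 (SD, n = 6), higher in 5 of 6 libraries and equal in the other one (exact permutation p = 0.0625, 0.438 adjusted over the 7 genes). TCF4 had 0.0779 ± 0.246 and ID2 -0.113 ± 0.286 (SD, n = 6 each; exact permutation p = 0.719 and 0.406). ID1 had -0.0906 ± 0.267, ID3 -0.0217 ± 0.341 and TCF3 0.175 ± 0.564, and ID4 had only 11 UMIs in these cells. Between 147 of 1187 and 620 of 2789 cells per library lay within 1 UMI of the lower edge of the upper tertile.

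The tissue-restricted bHLH factors that pair with E proteins were read next. Of a list of 44, 17 were expressed enough to be tested, and for TSA 4 of these fell and 0 rose (23.5% passed, beside 29.7% of all genes). Their median log2 fold change was -0.86, beside -0.0109 for all genes tested. That median is the value of TAL2 (SE 1.54), a gene near the detection limit with means of 0.531 CPM under DMSO and 0.271 under TSA. It is thus no measure of a shared fall. LYL1, a partner known from blood and endothelial cells, was at 30.4 and 20.3 CPM under DMSO, 5.55 and 4.35 under TSA and 51.6 and 37.6 under E6R. It fell by 2.35 on the log2 scale under TSA (SE 0.32, adjusted p = 0.00239) and passed in all 20 alternatives. HAND1, a partner in sympathetic and heart development, was at 212 and 113 CPM under DMSO and 45.9 and 48.1 under TSA, and fell by 1.79 (SE 0.30, adjusted p = 0.00513). Its call was lost without TSA replicate 1 (0.0525) and without TSA replicate 2 (0.0534). NEUROD2, a neuronal differentiation factor, was at 17.4 and 27.9 CPM under DMSO and 8.13 and 10.8 under TSA, and fell by 1.26 (SE 0.36, adjusted p = 0.034). NEUROD2 lost its call in 5 of 20 alternatives, among them those without DMSO replicate 2 (0.148), TSA replicate 1 (0.206) and TSA replicate 2 (0.116).

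ATOH8 and TAL1, which were named after their values were seen and did not pass for TSA (adjusted p = 0.0808 and 0.0917), stood higher in replicate 1 of DMSO and E6R: ATOH8 was at 13.2 and 1.34 CPM under DMSO and 14.6 and 0.414 under E6R, and TAL1 at 5.74 and 0.956, and 7.08 and 0.113. The endothelial markers were higher in the same libraries, and their part in these values was not tested.

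HAND2, a core factor of the adrenergic neuroblastoma state, was at 197 and 263 CPM under DMSO, 255 and 355 under TSA and 274 and 279 under E6R, with a log2 fold change of 0.41 for TSA (SE 0.24, adjusted p = 0.228). TWIST1, which also pairs with E proteins, was at 13.2 and 18.7 CPM under DMSO, 13.7 and 11.6 under TSA and 27.0 and 24.3 under E6R (adjusted p = 0.383 for TSA). None of these partners passed under E6R (0 of 17), beside 0% of all genes tested.

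Of 30 genes of BMP and SMAD signalling, the pathway that induces ID genes, 26 were tested. For TSA 8 fell and 2 rose (38.5% passed, beside 29.7% of all genes), with a median log2 fold change of -0.58. SMAD1, which carries the BMP signal to the nucleus, was at 25.1 and 20.1 CPM under DMSO, 4.25 and 4.53 under TSA and 28.9 and 31.0 under E6R. It fell by 2.36 on the log2 scale under TSA (SE 0.27, adjusted p = 0.00135), and passed in all 20 alternatives. ACVR2B, a type II receptor, fell by 2.37 (SE 0.39, adjusted p = 0.0045), from 27.4 and 17.0 CPM to 3.72 and 4.88; without TSA replicate 1 its adjusted p was 0.0503. The ligand gene BMP2 fell from 6.37 and 4.02 CPM to 0.912 and 0.784 CPM (log2 fold change -2.60, SE 0.52, adjusted p = 0.00916), and the ligand gene BMP4 rose from 1.91 and 1.34 to 10.5 and 5.83 CPM (2.33, SE 0.59, adjusted p = 0.0219). BMP2 lost its call without DMSO replicate 1 and without either TSA library, with adjusted p from 0.0537 to 0.0906, and BMP4 lost it without any 1 DMSO or TSA library, with adjusted p from 0.0625 to 0.162.

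The inhibitory SMAD genes, which BMP signals also induce, did not pass in the fit used here but did in some alternatives. SMAD6 was at 48.0 and 23.1 CPM under DMSO and 15.5 and 9.23 under TSA (log2 fold change -1.52, SE 0.54, adjusted p = 0.0665), and SMAD7 at 19.5 and 19.5, and 9.34 and 8.18 (-1.15, SE 0.48, adjusted p = 0.105). SMAD6 passed in 8 of 20 alternatives (adjusted p from 4.5e-06 to 0.364) and SMAD7 in 5 of 20 (0.00452 to 0.349). BAMBI, a decoy receptor, was at 121 and 54.7 CPM under DMSO, 92.2 and 54.7 under TSA and 201 and 64.5 under E6R (adjusted p = 0.751 for TSA). Replicate 1 was the higher library in each group, as for ID1, ID3, LYL1 and SMAD6 among others. SMAD6 was at 58.4 and 21.7 CPM under E6R. The share of all genes with this order of replicates was not counted. BMP7 stayed under 3 CPM in every library (adjusted p = 0.916). Under E6R 0 of the 26 passed against DMSO, beside 0% of all genes tested.

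**Figure D5:**
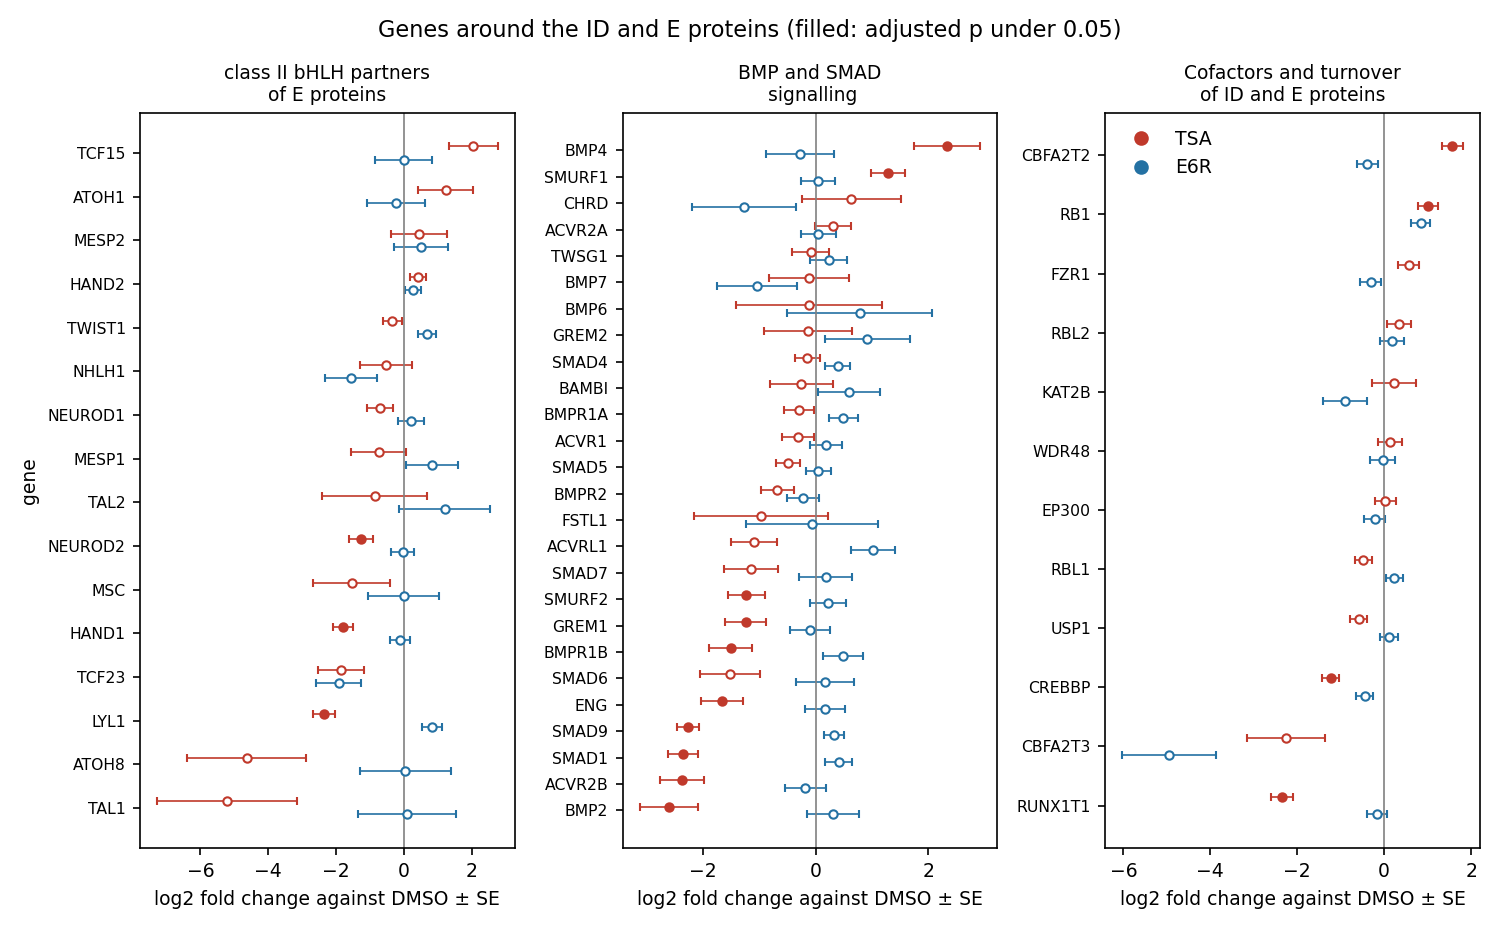
Fitted log2 fold change against DMSO, with SE bars, of the tested genes of 3 lists, 1 partner not drawn (bHLH partners of E proteins, BMP and SMAD signalling, cofactors and turnover of ID and E proteins), red for TSA and blue for E6R; filled points have an edgeR adjusted p under 0.05. Of the partners drawn, 3 are filled for TSA (LYL1, HAND1 and NEUROD2), all below 0. For E6R no point is filled in any panel, and 0% of all genes tested passed.

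All 12 genes of proteins that bind ID or E proteins or set their turnover were tested, and for TSA 2 rose and 2 fell, a share of 33.3% that is near the 29.7% of all genes. RUNX1T1 and CBFA2T2, both of the ETO family of corepressors that E proteins recruit, moved in opposite directions. RUNX1T1 was at 39.9 and 34.2 CPM under DMSO, 8.13 and 6.27 under TSA and 31.9 and 34.5 under E6R, and fell by 2.36 on the log2 scale under TSA (SE 0.25, adjusted p = 0.00118). CBFA2T2 was at 28.9 and 21.4 CPM, 69.1 and 80.4, and 20.5 and 18.0 in the same order, and rose by 1.57 under TSA (SE 0.24, adjusted p = 0.00334). Both passed in all 20 alternatives. CBFA2T3, the other family member, had 4 and 6 UMIs under DMSO, 3 and 2 under TSA and 0 and 1 under E6R, and entered the fit through DMSO, where it was highest. Per UMI sequenced DMSO held 6.13 times as much as TSA (exact 95% counting interval 1.91 to 22.9) and 46.6 times as much as E6R, a ratio that rests on 1 E6R UMI (6.63 to 2020). CBFA2T3 passed in neither comparison with DMSO (adjusted p = 0.0926 and 0.205).

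CREBBP, an acetyltransferase that E proteins recruit as a coactivator, fell by 1.23 (SE 0.20, adjusted p = 0.00455), from 113 and 103 to 44.4 and 48.1 CPM. Leaving out TSA replicate 1 or TSA replicate 2 gave an adjusted p of 0.054 or 0.0501. RB1, the retinoblastoma protein gene, was at 44.8 and 45.1 CPM under DMSO, 97.4 and 83.0 under TSA and 94.6 and 66.3 under E6R. It rose by 1.0 on the log2 scale under TSA (SE 0.23, adjusted p = 0.0147) and had 0.84 for E6R (SE 0.23, adjusted p = 0.205); the TSA call was lost with total counts only (0.058) and without any 1 DMSO or TSA library, with adjusted p from 0.0622 to 0.0989. USP1, the deubiquitinase that stabilises ID proteins, was at 150 and 143 CPM under DMSO, 101 and 94.3 under TSA and 136 and 180 under E6R (log2 fold change -0.59 for TSA, SE 0.21, adjusted p = 0.0626), and passed in 11 of 20 alternatives (adjusted p from 0.0184 to 0.286).

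Genes whose profile over the 6 libraries was most like that of each member were found by the distance between centred log2 CPM values, among genes with a mean of at least 20 CPM. This is a description of 6 points that share the same libraries. For TCF4 these were UBTF, a factor of RNA polymerase I, at a distance of 0.244, and E2F3, a cell cycle factor, at 0.297, where the median gene lay at 2.59. UBTF was at 173 and 141 CPM under DMSO, 32.3 and 35.7 under TSA and 187 and 190 under E6R. For TCF12 they were ACBD5 (0.184) and CHD3, a chromatin remodeller of the NuRD complex (0.191), and for TCF3 MED6, a Mediator subunit (0.171), and JRK (0.181). For ID2 they were COG5, a Golgi protein (0.111), and CSGALNACT2, an enzyme of chondroitin sulfate synthesis (0.144). For ID3 they were NDUFAF4, an assembly factor of respiratory complex I (0.160), and RGS5, a regulator of G-protein signalling (0.244), and for ID1 GPC1, a cell surface proteoglycan (0.386), and HBEGF, a growth factor (0.432). For ID4 the nearest, STC1 and the linker histone gene H1F0, lay at 1.37 and 1.41, where the median gene lay at 5.26.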

How the data were processed

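Single-cell RNA-seq libraries of SK-N-BE(2)-C cells, 2 each under DMSO, TSA and E6R, were deposited as matrices of raw UMI counts per gene and barcode. STARsolo 2.7.9a and GRCh38 are named in the submitters' processing notes; the annotation, the strand setting and the rule for keeping barcodes are not given in the sources used here. Library totals in cells were 4206366 to 26180262 UMIs. Genes were matched by symbol.

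Counts were summed over cells (500 or more genes, at most 20% mitochondrial UMIs, no doublet caller). They were tested with edgeR 4.0.16 in R 4.3.3 (quasi-likelihood, TMM, filterByExpr, group only, 6 libraries in 1 fit, adjusted p threshold 0.05). The fit was also run on simulated counts with the same spread for every gene and few changed genes. That setting differs from these data and does not measure error rates here. SEs came from the F statistic. DESeq2 1.42.0, other scalings, cell filters, thinning, the replicate block and leaving out each library were the alternatives, and the ID to E-protein ratio was also taken without ID2, TCF4 or both, chosen after seeing the data. Single values used exact permutation tests (scipy 1.17.1).

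The members, lists and tests were chosen with earlier results of these data known. Pathway genes were named by rule: up to 4 per list with the largest change among those past the threshold for TSA, and 13 regardless of result; the 2 nearest profiles per member were named too. Cofactor, partner and BMP lists came from general knowledge. Results for some genes of these lists are not reported here, though they stay in the lists' counts.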

Additional observations from a re-analysis of the deposited data

Results flagged for a closer look

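For 2 genes, the libraries of different treatments lay on opposite sides of 0 in the comparison of mitotic-high with mitotic-low cells, and this difference was not tested. The share of all genes with such a split was not counted. With 2 libraries per group a split of this kind can arise by chance, so the 2 genes are given as a description. ID2 had log2 ratios of -0.57 and -0.24 in the DMSO libraries and 0.20 and 0.12 in the E6R libraries. TCF3 had -0.31 and -0.36 in the DMSO libraries and 1.17 and 0.40 in the TSA libraries. In TSA replicate 1 the TCF3 value rests on 68 and 30 UMIs, and in DMSO replicate 1 the ID2 value rests on 47 and 70. The mean of ID2 over all libraries was -0.113, and with cells thinned to 500 UMIs it was 0.0264. The mean of TCF3 stayed above 0 in that setting.

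ID2 was also higher under TSA than under DMSO in barcodes with fewer than 500 genes, which were not counted as cells. Only the alternatives with 300 or more genes or with all deposited barcodes used them. ID2 was at 248 and 174 CPM there in the TSA libraries and at 138 and 142 CPM in the DMSO libraries (plain CPM). The E6R libraries stood at 197 and 135 CPM there, so E6R replicate 1 lay above TSA replicate 2 and these groups overlapped.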

How the results depend on the processing

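The calls of TCF4 and ID2 for TSA against DMSO held in all 20 alternatives. Of the 7 genes, 2 to 4 passed for TSA in every alternative; for E6R against DMSO 0 did except without the low-count filter, where 1 did (ID3, 1.14, adjusted p = 0.00261). For E6R against TSA 3 to 5 passed on leaving out 1 library, the lowest without TSA replicate 1. Directions of values that had not passed reversed in some alternatives, and the cause was not tested. With all deposited barcodes the TSA log2 fold changes were 0.0125 for ID1, 0.0441 for ID3 and 0.0344 for TCF3; with 1000 or more genes per cell BMP7 had 0.33. For E6R against DMSO, ID1 had 0.000197 with DESeq2, 0.161 without the low-count filter, 0.0387 with 300 or more genes, 0.153 with all barcodes and 0.00681 without mitochondrial and ribosomal protein genes; TCF3 had -0.0265 with total counts only and -0.043 with upper-quartile factors. With cells thinned to 1000 UMIs the ID to E-protein ratio for E6R against DMSO was -0.0236, and without ID2 and TCF4, a choice made after seeing the data, it was -0.00115. With cells thinned to 500 UMIs the mitotic comparison gave 0.0264 for ID2, 0.0896 for ID3 and -0.123 for ID4.

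Leaving out 1 library gave ranges for TSA of -0.586 to 0.285 for ID1, -0.511 to 0.131 for ID3, -0.425 to 0.227 for TCF3, -0.793 to 0.463 for BAMBI and -0.783 to 0.865 for BMP7. For E6R against DMSO they were -0.658 to 0.529 for ID1, -4.3 to 3.33 for ID4 and -0.0906 to 0.536 for TCF3, and for E6R against TSA -0.57 to 0.63 for ID1. Where 1 library was left out of a pair, the lone library was assumed to vary like the other groups.

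Of all genes, 4975 passed for TSA against DMSO, a count that was 2508 or 2696 on leaving out DMSO replicate 1 or 2, and 1769 or 1416 on leaving out TSA replicate 1 or 2. For E6R against TSA 6408 passed, and 3175 without TSA replicate 1, 2628 without TSA replicate 2 and 4151 with cells thinned to 1000 UMIs. E6R against DMSO had 0, and 361 did with DESeq2, 1095 without the low-count filter and 19 with the replicate block. Scaling by total counts only moved the median of all genes for TSA from -0.0109 to -0.32, TCF4 and ID2 keeping their calls. The replicate numbers are shared by the groups but the labels tie them to no batch; same-numbered libraries deviated together with r = 0.242 (DMSO and TSA), 0.564 (DMSO and E6R) and 0.166 (TSA and E6R) over 7515 genes. With the replicate block 4, 0 and 5 of the 7 genes passed in the 3 comparisons; TCF12 had -0.71 (adjusted p = 0.0379) for TSA, and SMAD6 (0.0016), SMAD7 (0.0342) and USP1 (0.0484) also passed. ID4 had no value with cells thinned to 1000 UMIs. The DMSO libraries were the shallowest, and a count of 0 there allows up to 0.637 and 0.574 CPM.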
